A study of Danio rerio with 9 samples.

Results

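The long arm of zebrafish chromosome 4 was taken as every locus listed on chromosome 4 with a start of at least 27000000 in the genome build GRCz10. Of the 30702 loci in each expression table, 2311 met this rule. Locus numbers in the tables rise along each chromosome, restart and rise again. Loci after the restart were nearly all at or near 0 on every chromosome, so they were treated as unmeasured rather than silent, and 1165 of the 2311 loci fell there. The remaining 1146 loci are described here and were set against the 325 loci of the rest of chromosome 4 and the 13673 loci of the other 24 chromosomes, all from before the restart. Coordinates are given as the tables list them.

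The long arm of chromosome 4 is a heterochromatic, late-replicating chromosome arm, rich in repeats and poor in conserved protein-coding genes. It carries large arrays of zinc finger genes, immune receptor genes of the NLR family and genes for small nuclear and ribosomal RNAs. It also holds the miR-430 cluster, among the first genes transcribed by the zebrafish embryo, whose microRNAs clear maternal mRNA. The stage sampled lies near the start of transcription from the embryo's own genome. Maternal and zygotic RNA were not separated in these data.

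RNA of whole embryos was sequenced from 3 haploid, 3 tetraploid and 3 diploid (control) libraries, all collected at 3 hpf (hours post fertilization) and all from TJH females crossed with Tu males. Haploid and tetraploid embryos were made by a published method that the labels cite without further detail. How many embryos went into a library, and whether replicates came from separate clutches, is not stated, so a p-value here reflects how much these particular libraries varied, and that variation may be technical. Levels are FPKM, fragments per kilobase and per 1e+06 mapped fragments, scaled between libraries. In whole-embryo RNA, fewer cells of a type and less RNA per cell cannot be told apart.

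Between 5395 and 5921 loci per library reached 1 FPKM. Tetraploid replicate 3 stood apart: the correlation of its log2 values with the other libraries, across tested loci, was 0.916 to 0.93, against 0.95 to 0.985 among the other 28 pairs. Of 15 marker genes of the early embryo looked up, 8 of the 9 measured ones reached a mean of 1 FPKM, up to 929 FPKM for nanog, a maternal regulator of genome activation. The late-tissue marker that was measured had a mean of 0.045 FPKM. Read as counting error, the deposited intervals imply a median of 32 to 79.1 fragments per tested long-arm locus, against 188 to 439 on the other chromosomes, so long-arm values are the less precise.

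The long arm was sparsely represented in the RNA of these embryos. A mean of at least 1 FPKM over the 9 libraries was reached by 58 of 1146 long-arm loci (5.06%), against 123 of 325 on the rest of chromosome 4 (37.8%) and 5631 of 13673 on the other chromosomes (41.2%). Among the 24 other chromosomes the lowest share was 34.3%, on chromosome 15, and the highest 49%, on chromosome 5. Any value above 0 was listed for 28.4% of long-arm loci, against 70.8% on the rest of chromosome 4 and 74% elsewhere, and 821 long-arm loci were listed at 0 in all 9 libraries.

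**Figure D1:**
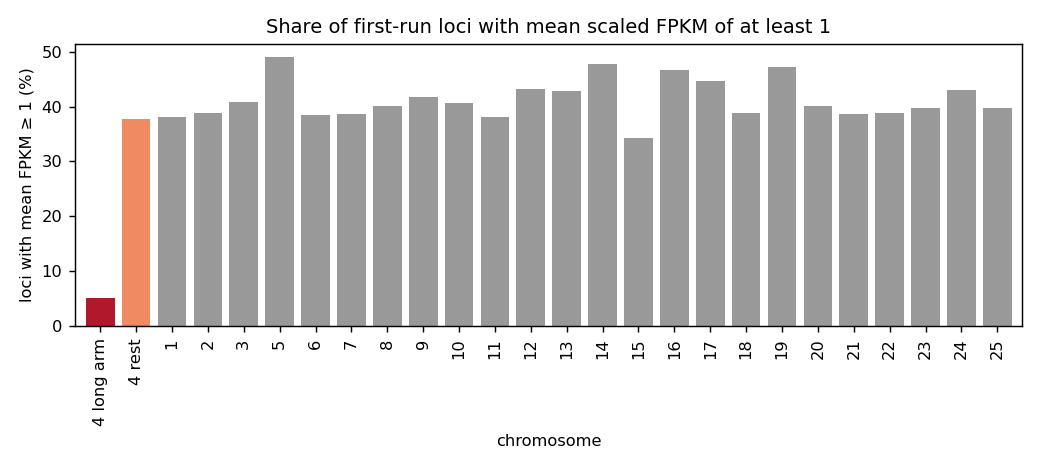
Percentage of loci with a mean of at least 1 scaled FPKM over 9 libraries (vertical axis) for the long arm and the rest of chromosome 4 and for each other chromosome (horizontal axis). The long arm stands at 5.06%, and every other bar lies between 34.3% and 49%.

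The same gap was present in each library. Haploid libraries had 4.28%, 4.01% and 4.8% of long-arm loci at or above 1 FPKM, tetraploid libraries 5.67%, 5.76% and 4.45%, and diploid libraries 5.93%, 5.24% and 4.8%. All 9 values lie far under those of the other chromosomes, which ran from 39.3% to 41.1%. Tetraploid libraries overlapped both other ploidies. Haploids and diploids met only at 4.8%, with no haploid library above a diploid one. Ploidy differences in this share were not tested. The mean share over libraries was 4.99% ± 0.692 on the long arm, against 37.5% ± 0.286 on the rest of chromosome 4 and 40.6% ± 0.524 on the other chromosomes (SD, n = 9). The long arm was lower in 9 of 9 libraries in both cases, with mean differences of -32.5 and -35.6 percentage points (exact two-sided sign-flip test over libraries, p = 0.00391 each, the smallest this design allows, and 0.00391 adjusted over 9 such tests). The libraries share their loci, so this test and the sign-flip tests below speak of the libraries and not of other loci. Those below use subsets of the same loci and are not independent support.

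Loci that did reach 1 FPKM were also at lower levels. Their median was 2.76 FPKM on the long arm (interquartile range 1.51 to 6.03), against 8.6 FPKM on the rest of chromosome 4 and 12.3 FPKM elsewhere, where the medians of single chromosomes ran from 7.18 to 16.9 FPKM. Only 12 of the 58 long-arm loci averaged at least 10 FPKM, and 22 averaged under 2 FPKM. At or above 1 FPKM in each of the 9 libraries were 28 long-arm loci, and 108 reached that level in at least 1 library.

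Long-arm loci are short, with a median span of 371 bases, against 9141 bases on the rest of chromosome 4 and 11072 bases elsewhere. Among loci that span at least 1000 bases, a division chosen after seeing the data, 52 of 528 on the long arm reached 1 FPKM (9.85%), against 121 of 294 on the rest of chromosome 4 (41.2%) and 5569 of 12232 on the other chromosomes (45.5%). Per library this share averaged 9.76% on the long arm, against 40.9% and 44.9%, and was lower in 9 of 9 libraries (exact sign-flip test, p = 0.00391 for each). Among loci under 200 bases the shares were close together, at 0.877% on the long arm (5 of 570) and 0.671% on the other chromosomes (6 of 894).

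Within the arm, loci at or above 1 FPKM lay mostly toward its far end. In bins of 5 Mb before the 27 Mb boundary, 32.3% to 45.2% of loci reached 1 FPKM. The first bin of the long arm held 5.56%, the following bins 2.39%, 2.56%, 4.9%, 1.69%, 0%, 1.92% and 0.855%, and the last 2 bins 10.2% and 30.3%. The 164 loci that start at 67 Mb or beyond include 32 at or above 1 FPKM (19.5%) and hold 87.3% of the summed FPKM of the arm. Of their sum of 713 FPKM, 238 FPKM come from 1 locus of 5.8S ribosomal RNA. The 982 loci between 27 and 67 Mb include 26 (2.65%), none with a mean above 6.77 FPKM. The division at 67 Mb was made after seeing the bins and is a description.

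**Figure D2:**
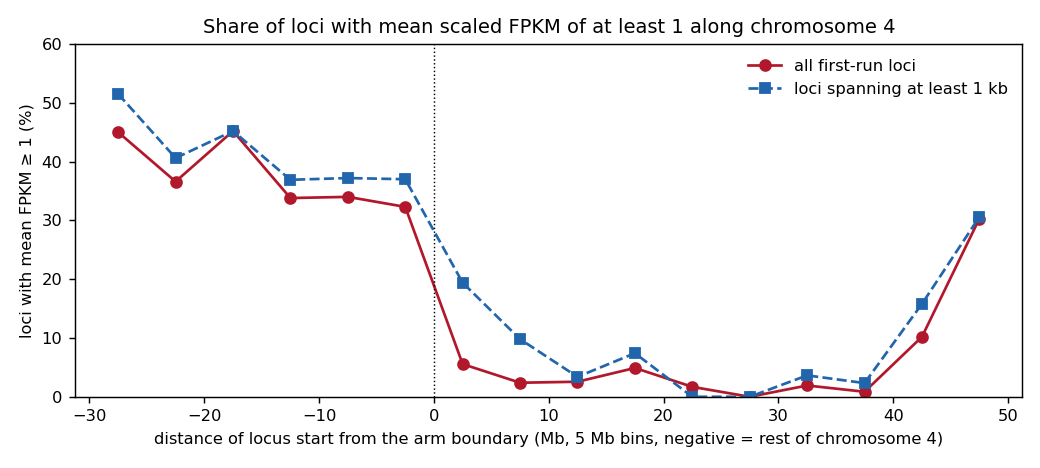
Percentage of loci with a mean of at least 1 scaled FPKM (vertical axis) in 5 Mb bins along chromosome 4, by distance from the 27 Mb boundary in Mb (horizontal axis), for all loci and for loci spanning at least 1000 bases. Both lines fall at the boundary, stay under 20% over the arm's inner part and end near 30% in its last bin.

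Loci next to the boundary show how the rule divides the chromosome. Just inside it were alg12, an enzyme of N-glycan assembly, at a mean of 2.49 FPKM, and brd1a, a bromodomain protein of a histone acetyltransferase complex, at 1.54 FPKM. Just outside were iqsec3a at 0.326 FPKM and slc6a1l, listed at 0 in all 9 libraries.

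Small RNA genes make up 535 of the 1146 loci, or 46.7% of the arm, against 4.1% of loci on the other chromosomes. Of the long-arm ones 5 reached 1 FPKM (0.935%), against 2 of 560 elsewhere (0.357%). The 334 loci of U6, a small nuclear RNA of the spliceosome, were listed at 0 in every library, as were the 17 U6 loci of the other chromosomes. The 9 long-arm loci of 5S ribosomal RNA were at 0 as well.

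The miR-430 cluster is represented by 54 loci with 11 different symbols, between 28738727 and 28754891. All 54 were listed at 0 in all 9 libraries. So were all 133 microRNA loci of the other chromosomes and the 5 of the rest of chromosome 4, so the tables hold no value above 0 for any measured microRNA locus, on or off the arm. Whether these libraries could capture RNAs of this length, and how reads of near-identical copies were assigned, is not given in the sources used here, and the zeros are not read as absence of miR-430.

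U1, the small nuclear RNA that recognises the start of introns, has 134 long-arm loci against 11 elsewhere. Above 0 in at least 1 library were 14 of the 134, and 4 of them had means of at least 1 FPKM. The highest, at 50798225 to 50798370, had 3.89, 0 and 4.76 FPKM in haploids, 12.2, 10.9 and 0 FPKM in tetraploids and 5.06, 0 and 24.2 FPKM in diploids. The next, at 42100627 to 42100791, had 4.49, 2.53 and 2.55 FPKM in haploids, 18.9, 6.73 and 4.18 FPKM in tetraploids and 0, 6.61 and 2.71 FPKM in diploids. Zeros occur in all 3 ploidies and the groups overlap. These values rest on a median of 2 and 1.5 implied fragments, and U1 copies are near-identical, so the level of any single locus is uncertain.

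Ribosomal RNA gave the highest value of the arm. A single 5.8S locus at 76320726 to 76320882 had 198, 277 and 150 FPKM in haploid, 247, 462 and 228 FPKM in tetraploid and 156, 253 and 173 FPKM in diploid libraries. Tetraploid replicate 2 was the highest, and the groups overlap. The other 3 measured loci of 5.8S ribosomal RNA, all on the long arm, were listed at 0 in all libraries. The long arm carries the ribosomal RNA genes used by the oocyte. How reads were shared among the copies, and whether ribosomal RNA was removed before sequencing, is not given in the sources used here.

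Zinc finger genes encode putative DNA-binding proteins. Counted by symbol, they number 80 on the long arm, 1 on the rest of chromosome 4 and 110 on the other chromosomes. Long-arm members were listed above 0 less steadily than the others and at lower levels. Some value above 0 in at least 1 library was listed for 77 of the 80 (96.2%) and for 106 of the 110 elsewhere (96.4%), but values above 0 in all 9 libraries for 37 of 80 (46.2%) against 94 of 110 (85.5%). Per library, 61.3% to 80% of long-arm members were above 0, against 90.9% to 94.5% elsewhere. A mean of 1 FPKM was reached by 11 of 80 (13.8%) against 85 of 110 (77.3%). The median level was 0.163 FPKM on the long arm (interquartile range 0.071 to 0.528) and 4.67 FPKM on the other chromosomes (1.48 to 11.8). Per library, 15% ± 3.19 of long-arm zinc finger loci reached 1 FPKM, against 76.2% ± 2.12 elsewhere (SD, n = 9), lower in 9 of 9 libraries (exact sign-flip test, p = 0.00391). A total of 11 long-arm zinc finger loci carry several symbols, and reads of near-identical family members may be divided between loci.

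**Figure D3:**
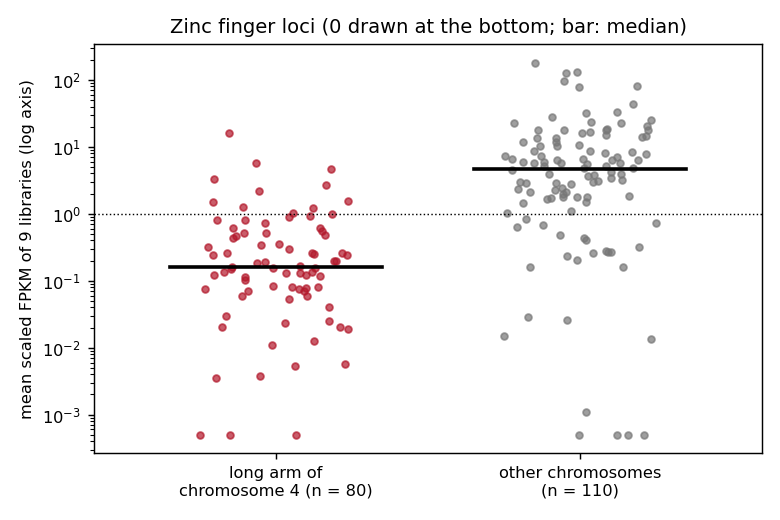
Mean scaled FPKM over 9 libraries (vertical log axis) of each zinc finger locus on the long arm and on the other chromosomes (horizontal axis), with bars at the medians and a dotted line at 1 FPKM. The long-arm median is 0.163 FPKM and that of the other chromosomes 4.67 FPKM.

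The leading member, znf989 at 72009518 to 72016929, had 11.7, 13 and 14 FPKM in haploids, 20.5, 20.2 and 9.86 FPKM in tetraploids and 15.9, 19.1 and 18.8 FPKM in diploids. Haploids lie below all diploids, and the tetraploids spread over both (limma, haploid minus diploid log2 -0.45, SE 0.255, adjusted p = 1). The next, znf1117, had 3.64, 1.21 and 5.52 FPKM in haploids, 6.79, 3.99 and 10.4 FPKM in tetraploids and 6.11, 2.13 and 11.2 FPKM in diploids. Replicate 2 was the lowest and replicate 3 the highest within each ploidy, and the groups overlap. The other 9 long-arm zinc finger loci past 1 FPKM had means of 1.01 to 4.64 FPKM.

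The low tail of this family varied by library. Its median was 0.149, 0.11 and 0.157 FPKM in haploids, 0.1, 0.102 and 0.079 FPKM in tetraploids and 0.406, 0.21 and 0.142 FPKM in diploids. Diploid replicate 1 was the highest and had 17 of 80 long-arm zinc finger loci at or above 1 FPKM, against 9 to 13 in the other 8 libraries. On the other chromosomes the zinc finger median of that library, 4.34 FPKM, lay inside the range of the other libraries (3.9 to 4.73).

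Loci with placeholder names also reached 1 FPKM less often on the long arm. Project names (si:, zgc: and the like) reached 1 FPKM in 20 of 231 long-arm loci (8.66%), against 28% on the other chromosomes. Clone names did so in 11 of 266 (4.14%), against 9.58%. Any value above 0 was listed for 39.8% of long-arm project names, against 65.4% on the other chromosomes. For clone names this share was not lower on the long arm, at 46.2% against 41.1%. Among placeholder loci of at least 1000 bases the share per library averaged 6.88% on the long arm, against 23.4% on the rest of chromosome 4 and 20.4% elsewhere, lower in 9 of 9 libraries (exact sign-flip test, p = 0.00391 for each).

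Other gene symbols are few. There are 34 such loci on the long arm (2.97% of it), and 11 reached 1 FPKM (32.4%), against 47.5% on the rest of chromosome 4 and 53.7% elsewhere. The per-library share averaged 31.7% on the long arm, against 46.9% and 53.1%, again lower in 9 of 9 libraries (exact sign-flip test, p = 0.00391 for each). Their 34 loci include 12 of the ms4a17a family of membrane proteins, between 74912104 and 75208498, whose highest mean was 0.0504 FPKM. The short loci of mascRNA-menRNA, at 31870363, 31904769 and 61029178, are among the 34 and were not counted as small RNA genes. They were listed at 0 in all libraries and so lower the long-arm shares given here. Also listed at 0 in all libraries were crestin, a neural crest marker, and trpm2, a cation channel. No measured long-arm locus carries an NLR symbol.

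The high named genes lie near the end of the arm. The leading one, nup50, encodes a nucleoporin that takes part in nuclear import and lies at 73490766 to 73532058. It had 76, 127 and 115 FPKM in haploids, 144, 146 and 103 FPKM in tetraploids and 110, 133 and 134 FPKM in diploids. The groups overlap, and haploid replicate 1 is the lowest. Its differences were -0.27 for haploid minus diploid and 0.04 for tetraploid minus diploid on the log2(FPKM + 1) scale (SE 0.214 each, limma, adjusted p = 1 and 0.973).

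At the very end of the arm lie arfgap3, an activator of the GTPase Arf in Golgi transport, pacsin2, a membrane-bending protein of endocytosis, terfa, a telomere-binding protein listed with zgc:113921, and cct2, a subunit of the TRiC chaperonin. Haploids had 77.5, 64.5 and 84 FPKM of arfgap3, tetraploids 73.6, 81.5 and 25.1 FPKM and diploids 80.2, 84.9 and 79.4 FPKM. For terfa the values were 30.4, 25.5 and 38.5 FPKM in haploids, 25.9, 28.8 and 5.8 FPKM in tetraploids and 32.9, 37.8 and 33.6 FPKM in diploids. In both genes tetraploid replicate 3 was far below the 8 other libraries. The pacsin2 locus overlaps the other 3, and without a stated strand setting their reads may not be separable.

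**Figure D4:**
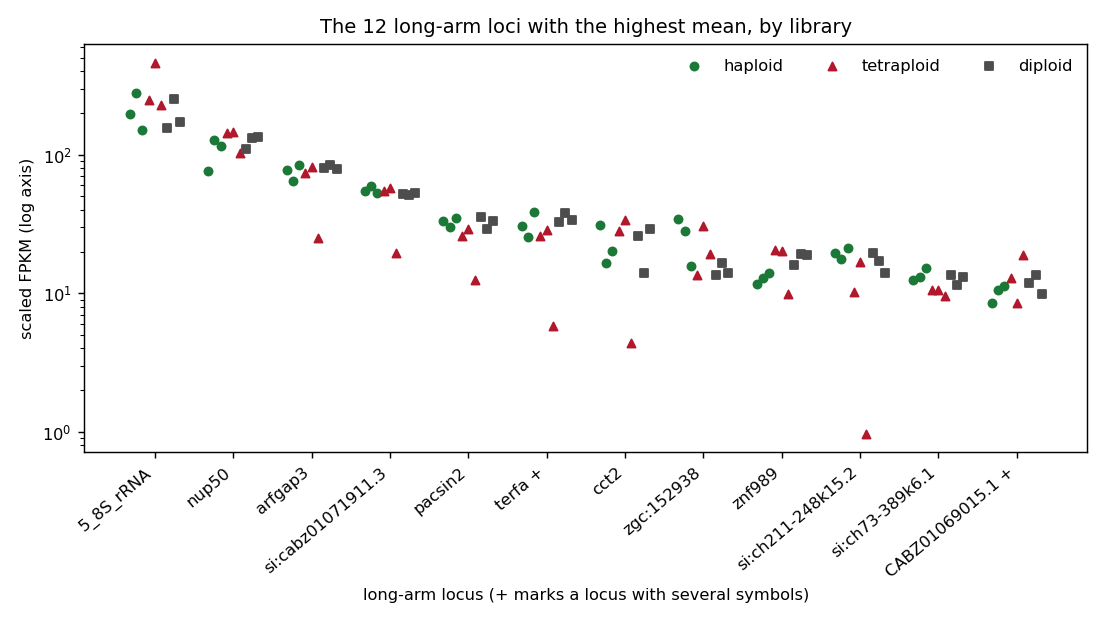
Scaled FPKM (vertical log axis) of the 12 long-arm loci with the highest mean (horizontal axis), with a point for each of 3 haploid, 3 tetraploid and 3 diploid libraries. Tetraploid replicate 3 is the lowest point at 8 of the 12 loci, among them arfgap3, terfa, cct2 and si:ch211-248k15.2.

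Low values of that library recur near the arm's end. It had 4.37 FPKM of cct2, against 14.1 to 33.7 FPKM in the other 8 libraries, 12.5 FPKM of pacsin2, against 26 to 35.6 FPKM, and 0.971 FPKM of si:ch211-248k15.2, against 10.3 to 21.1 FPKM. It was also high in places, with 16 FPKM of CABZ01069016.1 against 0.5 to 6.57 FPKM. Of the 58 tested long-arm loci, 18 (31%) were in tetraploid replicate 3 under 0.5 times the median of the other 8 libraries and 10 (17.2%) over 2 times, against 14% and 4.73% of tested loci on the other chromosomes. These loci are lower in level than those elsewhere, and the part of depth or level in this difference was not tested.

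Among the other named genes past 1 FPKM, levels were low. The transcriptional cofactor trim24 averaged 6.12 FPKM over the 9 libraries (range 5.13 to 7.14), rab3ip, an exchange factor for Rab GTPases, 3.03 FPKM (1.28 to 4.05), cerk, a ceramide kinase, 2.24 FPKM (1.41 to 2.88), and ttll1, a tubulin-modifying enzyme, 1.15 FPKM (0.317 to 1.75). The level of trim24 varied least of these.

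Ploidy was compared with limma on log2(FPKM + 1), a scale that understates changes of low loci, over 5864 loci with a mean of at least 1 FPKM, 58 of them on the long arm. At an adjusted p of 0.05 no long-arm locus passed in haploid against diploid (0% of all loci called), tetraploid against diploid (0.0171%) or tetraploid against haploid embryos (0.0171%). The smallest adjusted p of a long-arm locus was 1, 0.832 and 0.549 in the 3 comparisons in that order. Any 2 of these comparisons share the libraries of 1 ploidy: haploid libraries enter both haploid comparisons, tetraploid libraries both tetraploid ones and diploid libraries both diploid ones.

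At an unadjusted p of 0.05 the long arm had 5 loci in haploid against diploid embryos, all lower in haploids (8.62%, against a background of 1.38%), 4 in tetraploid against diploid embryos, 3 higher and 1 lower (6.9%, against 4.91%), and 10 in tetraploid against haploid embryos, 8 higher and 2 lower (17.2%, against 7.71%). Among the 5 is BX649341.1, tested only because diploid replicate 1, at 18.9 FPKM, lifted its mean over the filter. Its place among them is no evidence of a ploidy difference. Of the 8 loci higher in tetraploids than haploids, si:ch211-162i8.5, si:dkey-7j22.2 and znf1130 passed the filter only through the tetraploids. Their haploid means were 0.962, 0.736 and 0.644 FPKM, and their diploid means 0.82, 1.01 and 0.887 FPKM. Of the 3 higher in tetraploids than diploids, the same holds for si:ch211-162i8.5 and znf973 (haploid and diploid means 1.29 and 0.643 FPKM). These places are no evidence of a ploidy difference either. The counts in all 3 comparisons moved with single libraries. With 1 library left out in turn they ranged from 2 to 8, from 1 to 8 and from 5 to 9. Without diploid replicate 1 they were 2, 1 and 5 (3.7%, 1.85% and 9.26%, against 1.15%, 3.23% and 5.92% of all loci). Without haploid replicate 2 they were 2, 3 and 5 (3.23%, 4.84% and 8.06%, against 1.07%, 4.88% and 5.34%). Without tetraploid replicate 3 they were 6, 3 and 8 (10.3%, 5.17% and 13.8%, against 3.42%, 4.6% and 9.96%). The direction in haploid against diploid embryos was not fixed either. Without haploid replicate 3, 3 loci were higher and 4 lower in haploids, and 1 was higher without tetraploid replicate 1 or 2. In each omission the long-arm share exceeded that of all loci in both haploid comparisons, but not always in tetraploid against diploid embryos. These shares were not tested.

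Higher and lower values were also counted in each comparison. In haploid minus diploid embryos 23 of 58 long-arm loci were above 0 (39.7%, against 48.8% of all loci tested), with a median of -0.09 (log2), against -0.01 over all loci. In tetraploid minus diploid embryos 33 of 58 were above 0 (56.9%, against 49.5%), with a median of 0.09, and in tetraploid minus haploid embryos 34 of 58 (58.6%, against 49.1%), with a median of 0.16. Differences of more than 1 (log2) in either direction were present at 5, 7 and 4 long-arm loci in the 3 comparisons (8.62%, 12.1% and 6.9%, against 0.853%, 1.62% and 1.24% of all loci). None of these counts or medians was tested. Of the large haploid minus diploid differences, those of BX649341.1 and BX088547.1 come from loci that passed the filter only through diploid replicate 1. That library had 18.9 and 8.72 FPKM of them. Another, of the U1 locus at 42080878 (-1.12), rests on a median of 1.99 implied fragments. The 7 tetraploid minus diploid ones include BX649341.1 (-1.46), BX088547.1 (-1.01) and si:dkey-146c18.5 (-1.04), each highest in diploid replicate 1. They also include the U1 loci at 42100627 (1.61) and 42080878 (-1.71), on a median of 1.5 and 1.99 implied fragments. The rest are terfa (-1.02) and si:ch211-248k15.2 (-1.28), where tetraploid replicate 3 was the lowest library. The tetraploid minus diploid median had no stable sign: it was -0.035 without tetraploid replicate 1, -0.0045 without diploid replicate 2, -0.017 with no filter on level and 0.0036 with FPKM as deposited. The tetraploid minus haploid median was 0.066 without tetraploid replicate 1, 0 with no filter and 0.086 with FPKM as deposited, and the haploid minus diploid median was -0.029 with no filter and -0.13 with FPKM as deposited. The median deviation of long-arm loci from their own means was 0.05, -0.26 and -0.09 in haploid, 0.16, 0.14 and -0.07 in tetraploid and 0.06, 0.05 and 0.02 in diploid libraries, so haploid replicate 2 was lowest and tetraploid replicate 3 lay among the haploids.

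**Figure D5:**
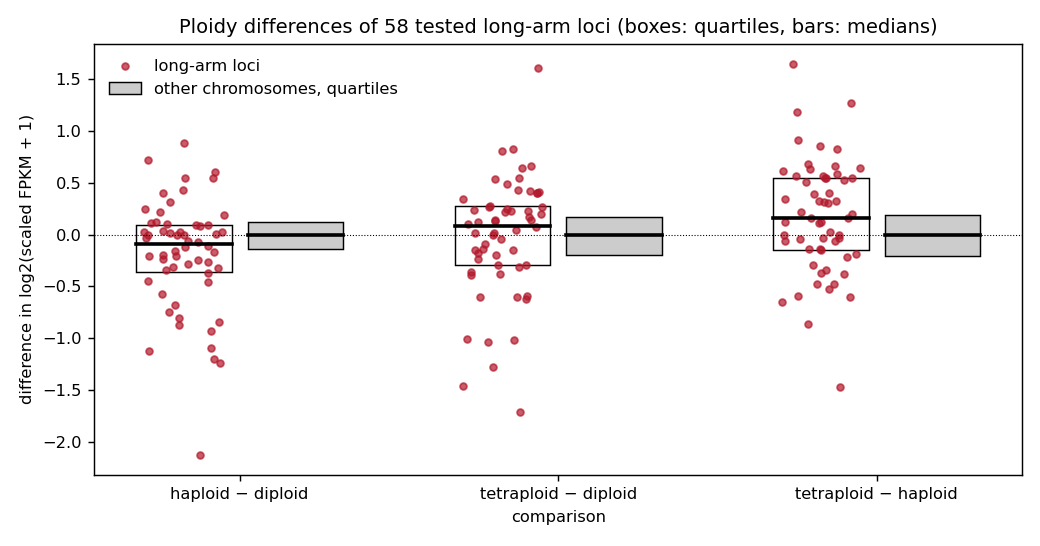
Difference in log2(scaled FPKM + 1) (vertical axis) of the 58 tested long-arm loci (points, with open boxes for quartiles and bars for medians) beside the quartiles of the other chromosomes (filled boxes) in 3 ploidy comparisons (horizontal axis). Long-arm points spread more widely, with medians of -0.09, 0.09 and 0.16.

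Among loci averaging 1 to 10 FPKM, the spread between libraries of a ploidy was also wider on the long arm, with a median within-group SD of 0.386 (log2) against 0.32 on the other chromosomes. Within this band the long-arm loci were still lower, with a median of 2.2 FPKM against 3.66 FPKM. The part of level in the wider spread was not tested. Haploid and diploid groups did not overlap at 6 long-arm loci, all lower in haploids (background 3.92% of all loci lower and 4.67% higher): znf989, CABZ01069016.1, rab3ip, BX649341.1, si:ch211-161m3.2 and CT573263.1. BX649341.1 was tested only because diploid replicate 1, at 18.9 FPKM, lifted its mean over the filter. It has a median of 2.16 implied fragments, so its place in this count is no evidence of a ploidy difference. Tetraploids lay above all diploids at 6 loci and below all at 4 (background 5.51% and 6.02%), and above all haploids at 7 and below all at 3 (background 7.2% and 6.53%). The 6 include znf973, si:ch211-162i8.5 and znf1130, and the 7 include si:ch211-162i8.5. These loci passed the filter only through the tetraploids, so their places in these counts are no evidence of a ploidy difference.

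The smallest unadjusted p of the arm belonged to si:ch211-161m3.2 at 70746998 to 70762510. It had 3.79, 2.53 and 4.29 FPKM in tetraploids, against 0.656, 0.832 and 1.1 FPKM in haploids, and 3.15, 3.19 and 1.25 FPKM in diploids. Every haploid library was below every other library. The tetraploid minus haploid difference was 1.27 (log2, SE 0.282, limma adjusted p = 0.549), and the haploid minus diploid difference -0.87 (SE 0.282, adjusted p = 1). A neighbouring locus with the same symbol, at 70728418 to 70739666, differed by 0.12 (SE 0.285) between tetraploids and haploids.

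The largest tetraploid minus haploid difference was in CABZ01069016.1, at 1.65 (log2, SE 0.47, limma adjusted p = 0.549). It had 6.5, 5.51 and 16 FPKM in tetraploids and 0.5, 3.02 and 3.49 FPKM in haploids, beside 4.07, 5.94 and 6.57 FPKM in diploids. Haploids lie below both other ploidies without overlap, and tetraploid replicate 3 is the highest. Without that library the difference was 1.22.

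The 3 most negative tetraploid minus haploid differences were smaller without the same library. The locus si:ch211-248k15.2 had 10.3, 16.8 and 0.971 FPKM in tetraploids, 19.4, 17.6 and 21.1 FPKM in haploids and 19.5, 17.2 and 14.1 FPKM in diploids. Its tetraploid difference was -1.47 from haploids and -1.28 from diploids (log2, SE 0.647 each, limma adjusted p = 0.641 and 0.832). Without tetraploid replicate 3 these were -0.52 and -0.33. The tetraploid minus haploid value of terfa likewise moved to -0.18 without it, against -0.86 with all libraries, and that of si:dkey-16p6.1 with zgc:113119 to -0.11, against -0.65.

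The largest haploid minus diploid differences came from loci that 1 diploid library carried. BX649341.1 was listed at 0 in all haploid libraries, had 3.09, 0 and 0 FPKM in tetraploids and 18.9, 0.722 and 1.46 FPKM in diploids. BX088547.1 had 0.23, 0 and 0 FPKM in haploids, 0.336, 0.0837 and 0.352 FPKM in tetraploids and 8.72, 0.203 and 0.379 FPKM in diploids. For si:dkey-146c18.5 the values were 3.42, 0.157 and 0.47 FPKM in haploids, 2.19, 0.83 and 0.791 FPKM in tetraploids and 14.1, 1.13 and 1.86 FPKM in diploids.

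Diploid replicate 1 was the highest library at all 3 loci. Without it the first 2 averaged under 1 FPKM and were not tested, and the haploid minus diploid difference of si:dkey-146c18.5 was -0.33, against -1.20 with all libraries (log2, limma adjusted p = 1 for both). The same library had the highest level of early zygotic genes from other chromosomes. The factor klf17 had 18.2, 0.956 and 1.87 FPKM in haploids, 16.8, 9.45 and 21.3 FPKM in tetraploids and 59.4, 10.2 and 21.4 FPKM in diploids, and the factor irx7 had 10, 0.175 and 0.547 FPKM in haploids, 7.22, 3.09 and 6.35 FPKM in tetraploids and 39.6, 3.34 and 8.26 FPKM in diploids. Haploid replicate 2 was the lowest library for both, and replicate 2 was also the lowest of the tetraploids and of the diploids for both. The part of a stage difference between libraries in the long-arm values was not tested.

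The largest positive haploid minus diploid differences were in BX571878.1 (0.88), zgc:152938 (0.72) and zgc:153116 (0.60), with limma adjusted p = 1 for each. Haploids had 34.1, 28 and 15.7 FPKM of zgc:152938, tetraploids 13.6, 30.6 and 19.1 FPKM and diploids 13.5, 16.6 and 13.9 FPKM. The diploids are close together and the haploids overlap them. BX571878.1 switched between near 0 and 4 to 5 FPKM within each ploidy: it had 4.29, 0.154 and 5.2 FPKM in haploids, 4.53, 3.64 and 0.337 FPKM in tetraploids and 0.0823, 3.98 and 0.127 FPKM in diploids. This locus spans 32511833 to 32694252, and its values rest on a median of 0.52 implied fragments.

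In tetraploid minus diploid embryos the largest positive difference after the U1 locus at 42100627 (1.61, SE 0.7) and BX571878.1 (0.83) was in znf973, at 0.81 (SE 0.324), all with limma adjusted p of 0.832 to 0.846. It had 1.19, 2.58 and 1.93 FPKM in tetraploids, 2.48, 0.768 and 0.611 FPKM in haploids and 0.511, 1 and 0.418 FPKM in diploids. All 3 tetraploids lie above all 3 diploids, and 1 haploid reaches their level. The locus znf973 passed the filter only through the tetraploids, so this separation is no evidence of a ploidy difference. The most negative was the U1 locus at 42080878, at -1.71 (SE 0.829, adjusted p = 0.832), where 2 libraries were listed at 0.

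As a share of all FPKM before the restart, the long arm held 0.359%, 0.402% and 0.35% in haploids, 0.425%, 0.515% and 0.276% in tetraploids and 0.397%, 0.387% and 0.391% in diploids. The tetraploids held both the highest and the lowest value. The means were 0.37% ± 0.0279, 0.405% ± 0.121 and 0.392% ± 0.0048 in haploid, tetraploid and diploid embryos (SD, n = 3 each). Exact two-sided permutation tests gave p = 0.4 for haploid against diploid, 0.7 for tetraploid against diploid and 0.7 for tetraploid against haploid embryos, where 3 libraries against 3 cannot go below 0.1. Without the 5.8S locus the means were 0.269% ± 0.00789, 0.26% ± 0.0757 and 0.3% ± 0.0249 in haploid, tetraploid and diploid embryos, and both tetraploid differences turned negative, at -0.0395 from diploids and -0.00856 from haploids (exact permutation p = 0.6 and 1). The haploid minus diploid difference was -0.0309 without the 5.8S locus (exact permutation p = 0.2), against -0.0214 with it. With the 5.8S locus but without tetraploid replicate 2 the tetraploid mean was below both others, with differences of -0.0411 from diploids and -0.0197 from haploids.

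The 2 authors' deposited tables with a pooled value per ploidy gave a share of 8.73% and 8.81% of long-arm loci at 1 FPKM, against 42.8% on the rest of chromosome 4 and 46.7% on the other chromosomes in each. Pooled values lie on a higher scale than those per library. In 1 of these tables nup50 had 266, 323 and 312 FPKM in haploids, tetraploids and diploids, against library means of 106, 131 and 126 FPKM. The same minimum is therefore less strict there, and these shares are not a like check on 5.06%.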

How the data were processed

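Per the labels' protocols, RNA was isolated with Trizol, a RIN of at least 9 was required, and sequencing libraries were standard Illumina ones. The authors deposited a gene table of FPKM per library and 2 tables of FPKM pooled by ploidy. The submitters' processing notes list FastQC, Trim Galore, HISAT2, Cufflinks, Cuffdiff and the build GRCz10. Not given in the sources used here are versions, annotation, strand setting, total reads and the treatment of reads with several positions. FPKM are not counts, so no count test was run, and a value of 0 may be a failed estimate.

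FPKM were scaled by median-of-ratios factors over 5767 loci, and 5 loci with a failed status were left out. Loci with a mean of at least 1 scaled FPKM entered limma 3.58.1 (R 4.3.3) on the log2(FPKM + 1) scale, in a single fit of all 9 libraries with a trended prior variance, and p-values were adjusted over all loci by the Benjamini-Hochberg method. The procedure was checked on simulated data. Known changes were placed only in loci of higher level, so the check does not cover low loci, which most tested long-arm loci are. Shares were compared within libraries by exact sign-flip tests, and sums between ploidies by exact permutation tests. Implied fragments read the deposited intervals as 2 standard deviations of counting error. Classes follow gene symbols alone, and loci with only placeholder names were not sorted by what they encode. A locus span is its listed end minus its listed start.

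Named loci were the 12 highest means, the 3 largest positive and 3 largest negative differences per comparison, the loci on either side of the boundary and the microRNA loci, with gene classes given by counts. rab3ip and CT573263.1 among the non-overlapping loci, znf1117, trim24, cerk, ttll1, crestin, trpm2, mascRNA-menRNA and ms4a17a were named after their values were seen. The members and lists were chosen with earlier results of these data known. Library titles run in 3 sets of consecutive numbers with 1 library per ploidy. Deviations of libraries of a set correlated at -0.11 to 0.234, above 0.1 in 1 of 9 pairs, so the numbers were not taken to pair samples. Single genes still repeated an order of sets. Replicate 2 was the lowest within each ploidy for klf17, irx7, mxtx2 and znf1117, but not for grhl3 in haploids. The part of the library set in the values of such genes was not tested. Alternatives covered the FPKM minimum, pseudocount, scaling, filter, fit, set and each library.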

Additional observations from a re-analysis of the deposited data

Results flagged for a closer look

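Among the 1165 long-arm loci after the restart of locus numbers, which the comparisons above leave out, 2 had a mean of at least 1 FPKM. They were a locus with a placeholder name at 68816116 to 68823793, with a mean of 1.09 FPKM, and its neighbour si:ch211-108c17.2, at 1.59 FPKM. They are listed because they show signal among loci otherwise treated as unmeasured. The placeholder locus had 2.14, 1.71 and 0.725 FPKM in haploids, 1.51, 0.56 and 0 FPKM in tetraploids and 1.67, 0.819 and 0.638 FPKM in diploids. The locus si:ch211-108c17.2 had 1.5, 1.68 and 2.39 FPKM in haploids, 1.2, 1.45 and 0.872 FPKM in tetraploids and 1.72, 1.64 and 1.83 FPKM in diploids.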

How the results depend on the processing

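The share of long-arm loci at the minimum level was 5.06% and became 8.03% at 0.5 FPKM, 1.57% at 5 FPKM, 2.6% with both numbering runs and 9.85% for spans of at least 1000 bases (added after seeing the data). The median level was 1.39 FPKM when loci from 0.5 FPKM were kept. No long-arm locus was called under any setting run. Of all loci, those called in tetraploid against diploid embryos numbered 0 with a pseudocount of 5, with FPKM as deposited or with 6 libraries, and 3 with no filter. In tetraploid against haploid embryos they numbered 0 with 6 libraries. With library set as replicate block both counts were 0, and the block changed no call of a long-arm locus. Leaving out 1 library in turn gave 0 to 1 calls in each comparison. Over the same omissions the median long-arm difference ran from -0.14 to -0.07 in haploid minus diploid, from -0.035 to 0.14 in tetraploid minus diploid and from 0.07 to 0.26 in tetraploid minus haploid embryos, where it was 0 with no filter; the tetraploid minus diploid median was then -0.017. The long-arm share of summed FPKM differed by -0.0411 to 0.0788 in tetraploid minus diploid and by -0.0197 to 0.1 in tetraploid minus haploid embryos, below 0 without tetraploid replicate 2. With 2 libraries left in a group, the spread was still pooled over all groups in the fit. Wide deposited intervals limit single loci: U1 loci past the filter have a median of 1.5 to 2 implied fragments and BX571878.1 of 0.52. Fragments were not counted, and the part of depth in these intervals was not tested.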
